A study of Mus musculus with 4 samples.

Results

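The 9 genes described here encode interleukin-22 (Il22), its receptor chains (Il22ra1, Il10rb) and soluble inhibitor (Il22ra2), interleukin-18 (Il18) with its binding protein (Il18bp) and receptor chain (Il18r1), and the IL-23-specific chains of ligand and receptor (Il23a, Il23r). They were chosen by gene name, and all 9 had a value in each of the 4 libraries, out of 54621 gene names listed in any table. RNA was sequenced from colorectal tissue of germ-free mice that had received azoxymethane (AOM), a colon carcinogen, at 6 to 7 weeks of age and then 3 cycles of 1% dextran sodium sulfate (DSS), which damages the lining of the colon, and were studied at week 36. All 4 groups share germ-free housing, AOM and DSS. The groups were polyps or neighbouring non-polyp tissue of wild-type (WT) mice and of Clec7a−/− mice (KO), which lack Dectin-1, a beta-glucan receptor of myeloid cells, in all cells. The methods give a C57BL/6J background after 9 generations of backcrossing. They also state that the germ-free WT mice were bought, whereas the KO line was made germ-free by caesarean delivery and fostering on germ-free WT dams, so genotype and mouse source cannot be told apart. Each group was 1 library made from RNA pooled over mice, 5 per genotype by the deposited design text and 4 WT by the paper.

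No group has a second library to measure replicate error, so no p-value or standard deviation is given and every difference is one between pools. Levels are in TPM, transcript abundances scaled for transcript length and for the library total. A gene was called higher or lower in a comparison where log2 of the ratio of TPM + 1 was over 1 or under -1, and this ratio understates the change of scarce genes. Clec7a was at 5.97 TPM in the WT non-polyp library, 31.2 in WT polyps, 0.0766 in the KO non-polyp library and 0.102 in KO polyps, so the genotype labels held in all 4 libraries. By the paper, no polyps developed in germ-free KO mice, and what tissue the library labelled KO polyp held is not known. Depth came to between 2.73 and 2.79 aligned gigabases in the 3 libraries whose tables allow it to be worked out. Epcam, an epithelial adhesion gene, was between 1338 and 1833 TPM in the 4 libraries.

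IL-22 is made mainly by lymphocytes and acts on epithelial cells through a receptor of IL-22RA1 and IL-10RB, which signals through STAT3 and drives repair and antimicrobial genes. IL-22 binding protein, the product of Il22ra2, is a secreted receptor without a membrane anchor that holds IL-22 away from cells, and dendritic cells of the gut are a known source. IL-23 from myeloid cells favours IL-22 production, and IL-18 is an epithelial cytokine that is cut to its active form by caspase-1 and is reported to lower IL-22 binding protein.

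The mouse strain annotated in GRCm38 has a second copy of Il22, Iltifb, on the same chromosome. Il22 lies at chr10:118204942-118210047 on the plus strand and Iltifb at chr10:118289629-118295038 on the minus strand, and both are annotated as protein-coding. Their coding sequences, each of 540 bases, differ at 9 bases (98.3% identity) and share an uninterrupted run of 215 identical bases, so a read from that run cannot be placed in either copy by its sequence. The stretch below is shown because it holds 3 of the 9 differences within 1 exon. It runs from coding base 187 to 246, and capitals mark the bases that differ (Il22 at chr10:118205570-118205629, Iltifb at chr10:118294351-118294410, both in the direction of transcription).
Il22: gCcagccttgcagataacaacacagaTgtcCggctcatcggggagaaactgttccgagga
Iltifb: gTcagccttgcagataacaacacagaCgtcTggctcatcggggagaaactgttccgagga
Counted from the first coding base, with Il22 first, these are C188T, T213C and C217T.

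RefSeq promoter windows of 300 bases (250 before to 50 after the start site, GRCm38.p6) were at hand for 6 of the 9 genes, and Il22ra2, Il10rb and Il23a are named only. Windows were searched on both strands for TATAAA (the TATA box, in 13.6% of all 32851 windows), AGGTCA (bound by nuclear receptors, in 16.3%) and TTCNNNGAA (bound by STAT factors, in 8.30%). The windows of Il23r and of Il18r1 (the most downstream of its 3 start sites) are shown because both genes were higher in KO polyps than in the other libraries and because each holds 2 matches. Capitals mark AGGTCA, or its reverse complement, in Il23r (chr6:67491806-67492105, minus strand) and TTCNNNGAA in Il18r1 (chr1:40465756-40466055, plus strand). No match overlapped another.
Il23r: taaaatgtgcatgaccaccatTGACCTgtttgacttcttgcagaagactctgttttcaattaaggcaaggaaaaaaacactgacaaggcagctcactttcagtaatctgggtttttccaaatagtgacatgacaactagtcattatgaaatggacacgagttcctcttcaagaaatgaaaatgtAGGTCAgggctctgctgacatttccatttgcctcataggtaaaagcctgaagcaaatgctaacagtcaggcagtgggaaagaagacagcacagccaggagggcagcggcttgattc
Il18r1: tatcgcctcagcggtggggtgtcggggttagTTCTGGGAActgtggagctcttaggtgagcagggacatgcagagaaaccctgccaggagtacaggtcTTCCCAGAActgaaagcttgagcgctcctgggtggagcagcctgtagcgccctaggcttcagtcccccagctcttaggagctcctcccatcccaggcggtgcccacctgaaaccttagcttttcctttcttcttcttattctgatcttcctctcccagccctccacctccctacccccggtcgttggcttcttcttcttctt
The locus that StringTie assembled in KO polyps at Il18r1 began at base 40466006 of chromosome 1, the start site of this window. The sources used here do not state whether the annotation guided the assembly, so an annotated start may come from the annotation. TATAAA was found in the windows of Il22 and Il18 and AGGTCA in that of Iltifb, while those of Il22ra1 and Il18bp and the other 2 of Il18r1 held none of the 3 motifs. A match in these letters is a description and not a shown binding site.

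Of the 9 genes, Il22ra2 showed the widest range of log2 ratios, and its transcript went in opposite directions in the polyps of the 2 genotypes. Il23a, the IL-23 p19 chain, was at 20.5 TPM in WT polyps and at most 1.21 elsewhere. Il18 and Il22ra1 were lower in WT polyps than in the other 3 libraries, and Il18bp, Il18r1 and Il23r were highest in KO polyps. The plot of levels by library shows these patterns.

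**Figure D1:**
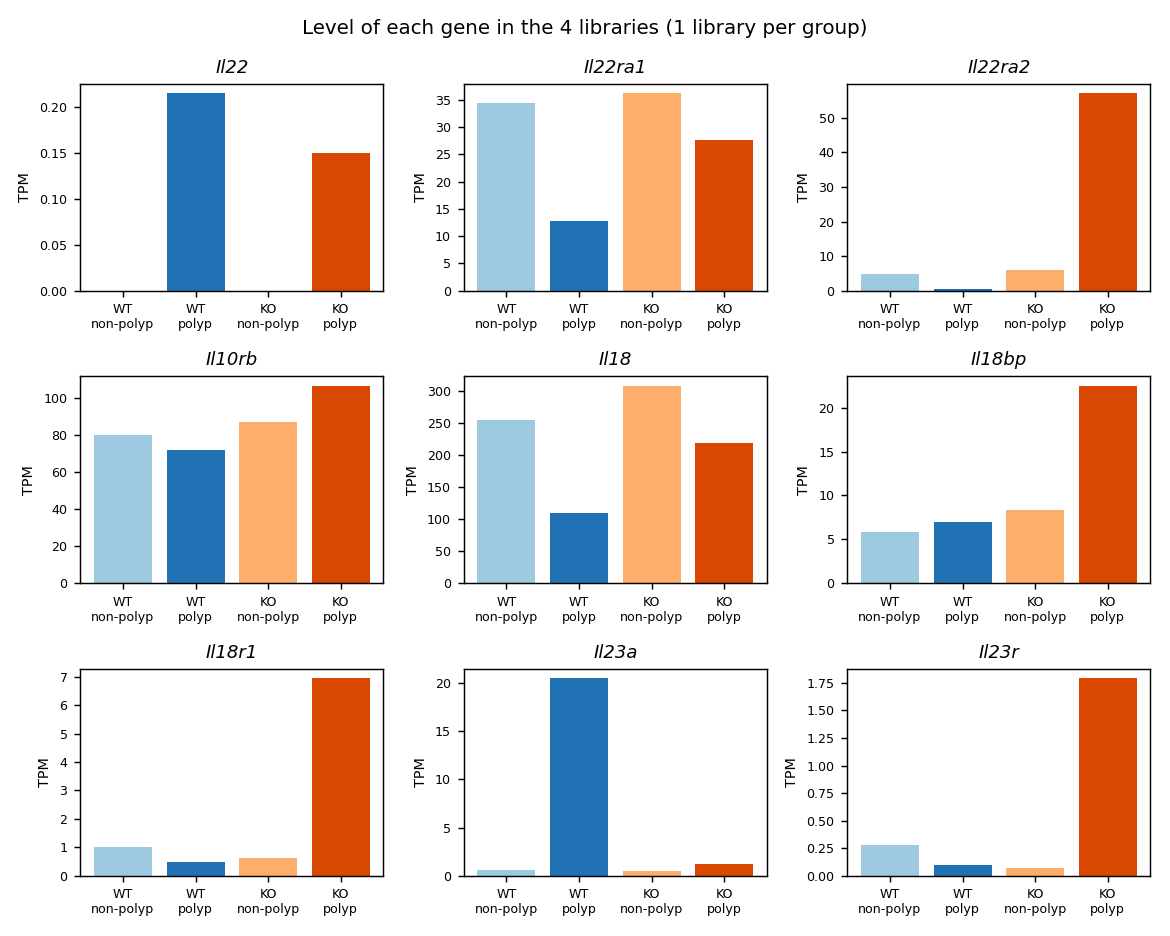
Level of each of the 9 genes in TPM (vertical axes, starting at 0 and differing between panels) in the 4 libraries, 1 bar per library and no error bars because each group has 1 library. Il22ra2 stood at 57.0 TPM in KO polyps against 0.425 in WT polyps, and Il23a at 20.5 TPM in WT polyps against at most 1.21 elsewhere.

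IL-22 itself was scarcely detected. Il22 was listed at 0 TPM in both non-polyp libraries, at 0.215 TPM in WT polyps and at 0.150 TPM in KO polyps. The 2 polyp values rest on 300 and 208 sequenced bases over a transcript of 1110 bases, a depth at which no difference between them was detectable. Iltifb was listed at 0 TPM in all 4 libraries. How reads shared by the 2 copies were assigned is not stated, so the Il22 values are uncertain for this reason too.

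The inhibitor differed most. Il22ra2, annotated at chr10:19621998-19634681 on the plus strand, stood at 4.81 TPM in the WT non-polyp library, 0.425 in WT polyps, 5.98 in the KO non-polyp library and 57.0 in KO polyps. The non-polyp libraries were alike, WT polyps lay below both and KO polyps lay above both. KO polyps held 134-fold more Il22ra2 than WT polyps by TPM (log2 ratio of TPM + 1 of 5.35). This gap has 2 sides: the level in WT polyps was 11.3-fold lower than in WT non-polyp tissue (log2 ratio -2.03), and that in KO polyps was 9.53-fold higher than in KO non-polyp tissue (log2 ratio 3.05). Between the non-polyp libraries the log2 ratio was 0.27. The log2 ratio of KO against WT was thus larger by 5.08 in polyps, a difference that 1 library per group leaves untested. The depth behind these values was 15574 sequenced bases in the WT non-polyp library, 1334 in WT polyps and 177735 in KO polyps, over a single annotated transcript of 2498 bases in 5 exons. The loci that StringTie assembled at Il22ra2 in WT non-polyp tissue and KO polyps had the gene's own annotated ends and TPM. These ends may therefore come from the annotation. No locus was assembled there in WT polyps. In pooled tissue, fewer cells of a type and less RNA per cell cannot be told apart.

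The membrane receptor moved less. Il22ra1, the epithelial chain that gives the receptor its specificity for IL-22, was at 34.4 TPM in the WT non-polyp library, 12.8 in WT polyps, 36.2 in the KO non-polyp library and 27.6 in KO polyps. WT polyps were lower than WT non-polyp tissue (log2 ratio -1.36), and KO polyps were 2.16-fold above WT polyps. The log2 ratio of the latter was 1.05, just past the threshold, and 0.95 on the FPKM scale, which did not pass. Il10rb, the chain shared with the IL-10 and interferon-lambda receptors, was at 80.0, 71.9, 87.1 and 107 TPM in the same order and passed the threshold in no comparison. Il10rb shares 569 exon bases with Gm21970, a gene on the same strand at 60.03 to 89.2 TPM, and reads there could be counted for either. Il22ra2 transcripts came to 0.0331 per Il22ra1 transcript in WT polyps, 0.14 in the WT non-polyp library, 0.165 in the KO non-polyp library and 2.06 in KO polyps, the one library where the inhibitor exceeded the receptor.

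Il23a encodes p19, the chain that sets IL-23 apart from IL-12. It was at 0.632 TPM in the WT non-polyp library, 20.5 in WT polyps, 0.547 in the KO non-polyp library and 1.21 in KO polyps. WT polyps were 32.4-fold above WT non-polyp tissue (log2 ratio 3.72), and KO polyps were 16.9-fold below WT polyps (log2 ratio -3.28). Il12b, which encodes p40, the chain that p19 needs to form IL-23, was listed at 0, 0.472, 0.133 and 0.926 TPM in the same order. The Il23a level was therefore 43.4-fold above that of Il12b in WT polyps and 1.31-fold above it in KO polyps. Both folds are uncertain, since Il12b lay under 1 TPM. In each library with assembled loci, the locus at Il23a began at base 128298752 of chromosome 10. That is the start of an annotated retained-intron transcript, whereas the protein-coding one starts at 128298084. Each locus had the gene's own annotated ends and TPM, so this start may come from the annotation. The share of protein-coding transcripts in the Il23a level is not known. Il12a, the p35 chain of IL-12, went the other way, with 6.16 TPM in KO polyps against 0.35 in WT polyps (log2 ratio 2.41).

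Il23r, the IL-23 receptor chain of T cells and innate lymphocytes, was at 0.276 TPM in the WT non-polyp library, 0.0959 in WT polyps, 0.0688 in the KO non-polyp library and 1.79 in KO polyps. The first 2 values rest on 890 and 300 sequenced bases and that of KO polyps on 5559, over 2488 transcript bases. The log2 ratio was 1.35 for KO against WT polyps and 1.38 for KO polyps against KO non-polyp tissue. Neither passed with a pseudocount of 5 TPM (0.41 and 0.42), and the first did not on the FPKM scale (0.79). Ligand and receptor chain thus had their highest level in different libraries. Il12rb1, the chain that IL-23R pairs with, was at 2.0 TPM in KO polyps and 0.409 in WT polyps (log2 ratio 1.09).

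Il18 was the most abundant of the 9 genes in every library. It was at 255 TPM in the WT non-polyp library, 110 in WT polyps, 308 in the KO non-polyp library and 218 in KO polyps. WT polyps were 2.31-fold below WT non-polyp tissue (log2 ratio -1.20). KO polyps were 1.98-fold above WT polyps, with a log2 ratio of 0.98 that missed the threshold and passed it, at 1.11, after median-of-ratios scaling. The assembled locus began at base 50565374 of chromosome 9 in all 3 tables that hold assembled loci. That is an annotated start downstream of the gene's first one at 50554827, and it may come from the annotation. The RefSeq window searched for motifs lies at the upstream start.

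Il18bp, the secreted inhibitor of IL-18, was at 5.79 TPM in the WT non-polyp library, 6.95 in WT polyps, 8.38 in the KO non-polyp library and 22.5 in KO polyps. KO polyps were 3.23-fold above WT polyps (log2 ratio 1.56) and 2.68-fold above KO non-polyp tissue (log2 ratio 1.32), while WT polyps and WT non-polyp tissue had a log2 ratio of 0.23. Il18 transcripts numbered 44.0 per Il18bp transcript in the WT non-polyp library, 36.8 in KO non-polyp tissue, 15.9 in WT polyps and 9.72 in KO polyps. Both polyp libraries lay below both non-polyp libraries in this ratio. In WT polyps the lower Il18 level accompanied it, and in KO polyps the higher Il18bp level. Il18bp shares 80 exon bases with Numa1 on the opposite strand (88.8 to 111 TPM), and with the non-directional kit of the labels such reads cannot be told apart. The locus assembled over Il18bp ran on upstream to base 102065469 of chromosome 7 in both WT libraries (41.3 TPM in non-polyp tissue and 34.0 in polyps) and kept the annotated ends in KO polyps (22.5 TPM), so the assembled values cover different lengths and lie in the reverse order of the gene's own.

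Il18r1, the IL-18-binding receptor chain of lymphocytes, was at 1.03 TPM in the WT non-polyp library, 0.469 in WT polyps, 0.613 in the KO non-polyp library and 6.93 in KO polyps. KO polyps were 14.8-fold above WT polyps (log2 ratio 2.43) and 11.3-fold above KO non-polyp tissue (log2 ratio 2.30). Il18rap, the second chain that signalling needs, had another pattern: 0.305 TPM in the WT non-polyp library, 2.19 in WT polyps, 0.426 in the KO non-polyp library and 2.03 in KO polyps. It was higher in the polyps of both genotypes (log2 ratios 1.29 and 1.09) and at -0.08 between them.

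**Figure D2:**
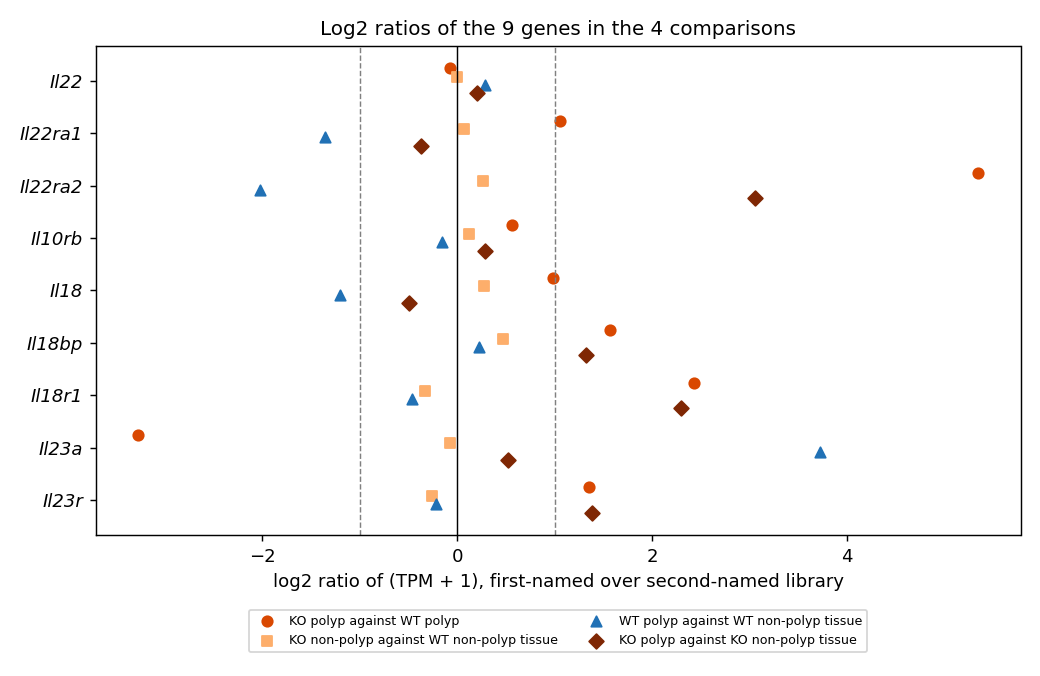
Log2 ratio of TPM + 1 (horizontal axis) of the 9 genes in 4 comparisons between libraries, 1 symbol per comparison, with dashed lines at -1 and 1. Il22ra2 lay at 5.35 for KO against WT polyps, 3.05 for polyp against non-polyp tissue in KO and -2.03 in WT, and all 9 symbols for the non-polyp comparison lay between the dashed lines.

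Counted over the 9 genes, KO polyps against WT polyps gave 5 higher (Il22ra2, Il18r1, Il18bp, Il23r and Il22ra1) and 1 lower (Il23a), with a median log2 ratio of 1.05. With a pseudocount of 5 TPM or on the FPKM scale 4 of these 6 passed, without Il22ra1 and Il23r. Over all gene names 5.06% were higher and 4.29% lower, and among names reaching 1 TPM in either library, a level that 8 of the 9 genes reached in at least 1 library, 14.7% were higher and 12.5% lower with a median of -0.05. Median-of-ratios scaling shifted the log2 scale of this comparison by 0.13, which abundant genes followed (Il18 from 0.98 to 1.11) and scarce genes less, because of the added 1 (Il22ra2 from 5.35 to 5.39). KO against WT non-polyp tissue gave 0 higher and 0 lower of the 9, with log2 ratios between -0.33 and 0.47 and a median of 0.07. Here 0.76% of all names were higher and 0.636% lower (2.37% and 1.98% of names reaching 1 TPM), so few genes passed in this comparison at all.

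WT polyps against WT non-polyp tissue gave 1 higher (Il23a) and 3 lower (Il22ra2, Il22ra1 and Il18) of the 9, with a median log2 ratio of -0.22. Over all names 5.17% were higher and 3.67% lower, and of those reaching 1 TPM 15.4% and 10.9% with a median of 0.21. Median-of-ratios scaling shifted the log2 scale of this comparison by -0.20, with the same difference between abundant and scarce genes, and moved the split over all names from 2822 higher and 2004 lower to 2167 and 2413, while the same 4 genes of the 9 passed. KO polyps against KO non-polyp tissue gave 4 higher (Il22ra2, Il18r1, Il23r and Il18bp) and 0 lower, with a median of 0.52. Over all names 3.29% were higher and 0.989% lower, and of those reaching 1 TPM 9.91% and 2.98% with a median of 0.04. The 4 comparisons share libraries in pairs, so their counts are not independent of one another.

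The 5 gene names nearest to Il22ra2 in pattern over the 4 libraries, out of 10380 protein-coding names, were Ccl20, Mzb1, Cxcl13, Pou2af1 and Lax1, at distances of 0.77 to 1.06 on the log2 scale after centring each gene. Ccl20 is a chemokine of the epithelium over lymphoid follicles, Cxcl13 draws B cells into follicles, Mzb1 and Pou2af1 are B-lineage genes and Lax1 is a lymphocyte adaptor. Cxcl13, for example, was at 52.1 TPM in the WT non-polyp library, 14.8 in WT polyps, 39.0 in the KO non-polyp library and 271 in KO polyps. The names nearest to Il18 were Tom1l2, Ildr1, Suclg2, Scnn1a and Erbb3, at distances of at most 0.078. Scnn1a, a subunit of the colon's sodium channel, was at 82.4, 34.0, 94.0 and 69.7 TPM in the same order. The names nearest to Il23a were Trim29, Rnase1, Nfe2l3, Hoxd12 and Neto2, at distances of at most 0.21, and Rnase1, a secreted ribonuclease, stood at 45.3 TPM in WT polyps and at most 3.22 elsewhere. Each likeness rests on 4 points.

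Markers of some other cells were, like Il22ra2, higher in KO than in WT polyps. Among the sums for B cells and follicles, dendritic cells and T cells, only the first was also lower in WT polyps than in WT non-polyp tissue. The sums for mature colonocytes and smooth muscle, given further below, had both of these directions as well. The shares of all names given above for each comparison also stand beside the list counts from here on. Between polyps 14.7% of names reaching 1 TPM were higher and 12.5% lower. Of 8 macrophage genes, 1 was higher between polyps, a count near that share, with a median log2 ratio of 0.47. All 9 listed genes of B cells and follicles were higher in KO than in WT polyps, and their summed level was 113 TPM in the WT non-polyp library, 54.3 in WT polyps, 85.4 in the KO non-polyp library and 1619 in KO polyps. For dendritic cells 9 of 10 were higher, with sums of 41.9, 66.2, 34.4 and 203 TPM in the same order, and Batf3, at a log2 ratio of 0.55, did not pass. All 8 T cell genes were higher too, with sums of 13.1, 20.7, 12.4 and 124 TPM, and no gene of these lists was at 0 in any library. Set against the dendritic cell sum, Il22ra2 was at 115 per 1000 TPM in the WT non-polyp library, 6.42 in WT polyps, 174 in the KO non-polyp library and 281 in KO polyps, a 43.8-fold difference between KO and WT polyps. Set against the B cell and follicle sum it was at 42.4, 7.82, 70.0 and 35.2 per 1000 TPM, a 4.50-fold difference. Against Ms4a1 alone, a B cell gene of that list, the ratio was 1.02, 0.296, 1.71 and 0.535, a 1.81-fold difference. Set against 6 listed genes of the epithelium over follicles, Il22ra2 was at 36.5, 0.816, 45.8 and 127 per 1000 TPM, a 155-fold difference. Marcksl1 made up 471 of the 520 TPM of that sum in WT polyps. Against Flt3 alone, a gene of the dendritic cell list, the ratio was 5.15, 0.766, 7.75 and 4.31, a 5.63-fold difference. Against Itgax, another dendritic cell gene of the list, the ratio was 0.615, 0.0232, 0.726 and 1.24, a 53.6-fold difference. WT polyps were the lowest library in all these ratios. KO polyps were the highest against the dendritic cell sum, Itgax and the sum for epithelium over follicles. They were below both non-polyp libraries against Flt3, Ms4a1 and the B cell and follicle sum. The part of these cells in the Il22ra2 level was not tested.

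**Figure D3:**
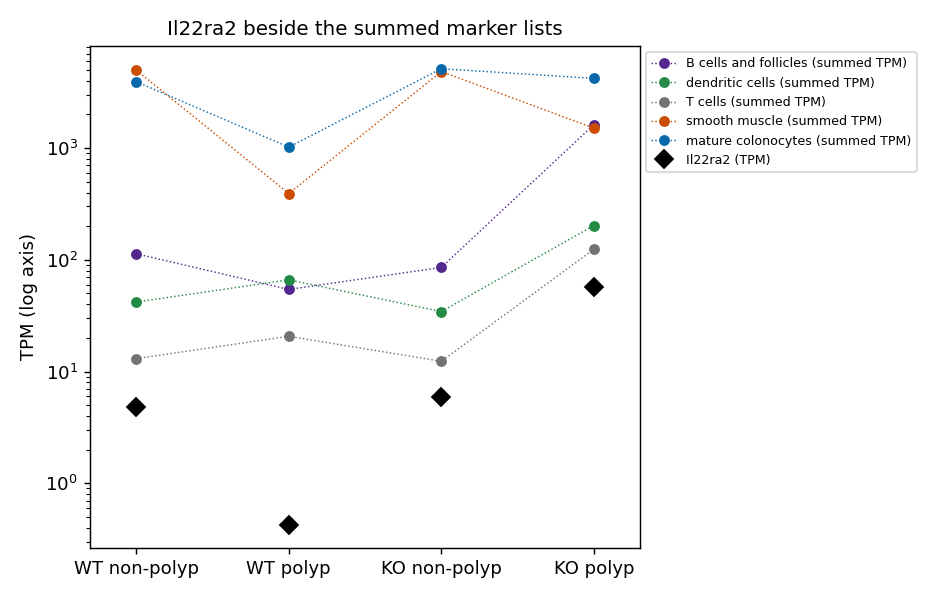
Il22ra2 (black diamonds, TPM) and the summed TPM of 5 marker lists (coloured points joined by dotted lines as a guide) in the 4 libraries, on a log axis. The B cell and follicle list reached 1619 TPM in KO polyps, where Il22ra2 was at 57.0, and in WT polyps the dendritic cell list was at 66.2 TPM while Il22ra2 was at 0.425.

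Markers of mature colonocytes moved with Il18 and Il22ra1, and general epithelial markers did not. Of 7 mature colonocyte genes, 6 were lower in WT polyps than in WT non-polyp tissue and 5 were higher in KO than in WT polyps, and their sum was 3923 TPM in the WT non-polyp library, 1020 in WT polyps, 5128 in the KO non-polyp library and 4206 in KO polyps. Of 8 general epithelial genes, none was lower and 1 was higher in WT polyps than in WT non-polyp tissue (Krt18, a keratin, log2 ratio 1.72), and their sum was 11721 and 12743 TPM. Il18 per Epcam transcript was 0.191 in the WT non-polyp library, 0.0601 in WT polyps, 0.177 in the KO non-polyp library and 0.158 in KO polyps. All 6 smooth muscle genes were lower in both polyp libraries than in the non-polyp tissue of the same genotype, with a sum of 392 TPM in WT polyps and 1508 in KO polyps against at least 4838 elsewhere. Between KO polyps and KO non-polyp tissue, where these muscle genes also differed, Il18 and Il22ra1 had log2 ratios of -0.49 and -0.38. The part of maturation or of muscle in the levels of Il18 and Il22ra1 was not tested.

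Some genes that process IL-18 moved with Il18, and others did not. Of 9 inflammasome genes, 4 were lower in WT polyps than in WT non-polyp tissue and the same 4 were higher in KO than in WT polyps. They were Nlrp6, an epithelial sensor (98.6 TPM in the WT non-polyp library, 9.31 in WT polyps, 106 in the KO non-polyp library and 75.8 in KO polyps), Nlrp1b, another sensor (log2 ratio -1.83 in the WT comparison and 1.50 between polyps), Pycard, the adaptor ASC (-1.02 and 1.01), and Casp1. Casp1, the enzyme that cuts IL-18, was at 173, 72.2, 191 and 165 TPM in the same order of libraries. Nlrp3, a sensor of myeloid cells, was higher in the polyps of both genotypes (log2 ratios 1.14 and 1.39), and Gsdmd, the pore through which IL-18 leaves cells, passed in no comparison. The list's median was -0.23 for WT polyps against non-polyp tissue and 0.60 between polyps. Of 6 genes of IL-18 receptor signalling none passed between polyps, with a median of 0.30.

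Genes known to respond to IL-22 in epithelium were mostly higher in WT polyps than in KO polyps or WT non-polyp tissue. Of 14, 9 were lower and 1 was higher in KO than in WT polyps (median log2 ratio -1.70), and 8 were higher and 1 was lower in WT polyps than in WT non-polyp tissue (median 1.62). Between KO polyps and KO non-polyp tissue 3 were higher (Reg3g, S100a8 and S100a9) and 0 lower, with a median of -0.04. Reg3g, an antimicrobial lectin, was at 0.941 TPM in the WT non-polyp library, 66.5 in WT polyps, 0.202 in the KO non-polyp library and 5.15 in KO polyps. Reg3b, its relative, was at 19.0 TPM in WT polyps and listed at 0 in KO polyps, and Saa3, an acute-phase gene, at 85.4 and 0.0461 TPM. Lcn2, which binds bacterial siderophores, was at 43.7 TPM in WT polyps and between 4.50 and 5.30 elsewhere. S100a8 and S100a9, which neutrophils also make, had log2 ratios of -3.79 and -5.05 between polyps. Of 8 neutrophil markers 4 were lower and 1 was higher in KO than in WT polyps. Their sums were 184 and 197 TPM, of which Ly6g, the higher one, made up 172 and 74.0. Ly6g was also at 166 TPM in WT and 189 in KO non-polyp tissue, where no other gene of the list exceeded 5.31 TPM. Which cells its level comes from was not tested. The part of neutrophils or other myeloid cells in the 2 S100 genes, or in the other genes of this list such as Lcn2, was not tested. Saa1 went against the others, with 1775 TPM in the WT non-polyp library, 147 in WT polyps, 2219 in the KO non-polyp library and 1588 in KO polyps, and how reads were split between it and its close copy Saa2 (at most 0.633 TPM) is not known.

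Of the 4 listed signalling genes below the IL-22 receptor, Socs3, a feedback inhibitor induced by STAT3, was higher in WT polyps than in WT non-polyp tissue (log2 ratio 2.15) and lower in KO than in WT polyps (log2 ratio -1.36). Its levels were 14.6 TPM in the WT non-polyp library, 68.1 in WT polyps, 14.2 in the KO non-polyp library and 25.9 in KO polyps. Stat3 was at 75.8, 108, 72.8 and 58.9 TPM in the same order and did not pass, and neither did Jak1 or Tyk2.

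**Figure D4:**
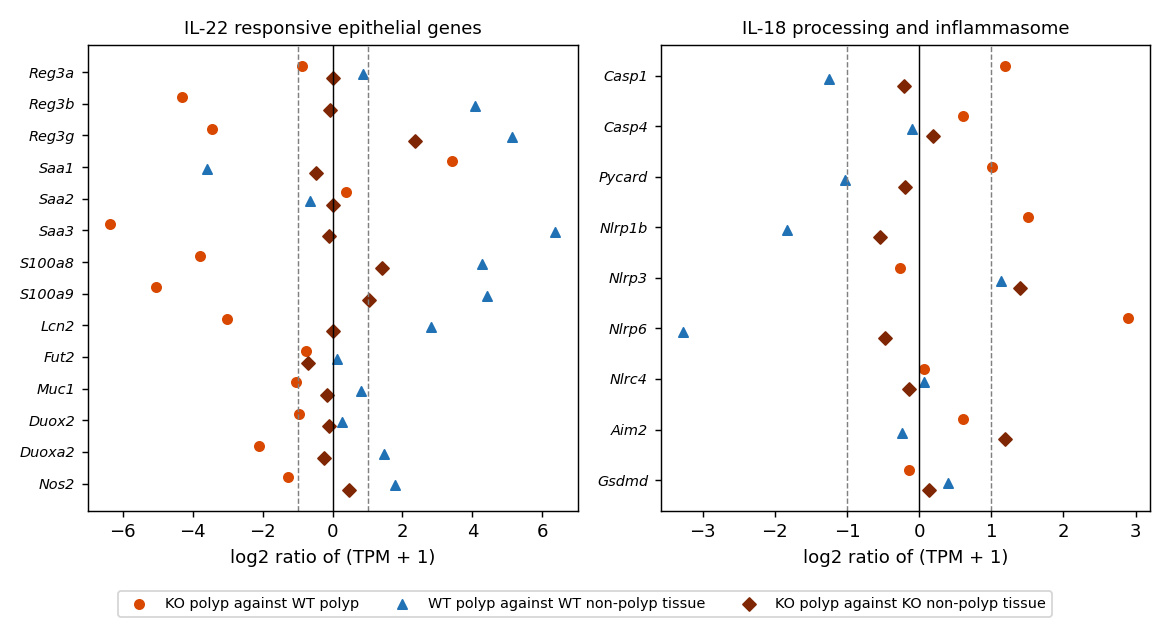
Log2 ratio of TPM + 1 (horizontal axes) for 14 IL-22 responsive genes (left) and 9 genes of IL-18 processing (right) in 3 comparisons, 1 symbol per comparison, with dashed lines at -1 and 1. Saa3 lay at -6.37 between KO and WT polyps and Saa1 at 3.42, and Nlrp6 at -3.27 between WT polyps and WT non-polyp tissue.

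Among 11 genes of lymphocytes that can make IL-22, 5 were higher and none lower in KO than in WT polyps, with a median log2 ratio of 0.84. The 5 were Ccr6, Il7r, Kit, Batf and Il17f. All 9 listed B cell and follicle genes and all 8 T cell genes were higher in this comparison too. Ccr6 ranked the libraries in the same order as the B cell and follicle sum. The part of each kind of lymphocyte in these 5 genes was not tested. Ccr6, a receptor for Ccl20, was at 2.23 TPM in the WT non-polyp library, 0.264 in WT polyps, 0.582 in the KO non-polyp library and 16.6 in KO polyps, and Il7r, a survival receptor of lymphocytes, was at 15.0 TPM in KO polyps and at most 1.81 elsewhere. Kit was at 36.9 TPM in the WT non-polyp library, 7.0 in WT polyps, 33.6 in the KO non-polyp library and 26.4 in KO polyps. Its level was thus highest in non-polyp tissue. Il17a and Il17f, which the same cells make, did not exceed 1.10 TPM in any library. The Il17f call rests on 0 TPM in WT polyps and 1.03 in KO polyps. Among 10 genes of the wider IL-10 family only Il10ra, the IL-10-binding receptor chain of leukocytes, passed between polyps (40.2 TPM in KO and 9.24 in WT, log2 ratio 2.01), and Il19, Il20, Ifnl2 and Ifnl3 were listed at 0 in all 4 libraries. Of 8 genes of the IL-12 family 3 were higher in KO than in WT polyps (Il12a, Il12rb1 and Stat4), with a median of 0.56. Among all names reaching 1 TPM, 14.7% were higher in this comparison.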

How the data were processed

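RNA of colorectal tissue was sequenced in 4 libraries, 1 per genotype and tissue. The methods and labels state that the authors ran Trimmomatic for trimming, HISAT2 for alignment to GRCm38 (mm10) and StringTie for assembly, all within Galaxy. Versions and the annotation release are not given in the sources used here. The labels name a NEBNext Ultra kit and the paper a SmartSeq2 kit, and this was not resolved. The authors deposited TPM per reference gene for all 4 libraries. For 3 of them the deposited tables also hold FPKM and a coverage signal, the mean depth per base. Their TPM column lists assembled loci beside the genes, and these were kept apart. The KO non-polyp table holds TPM and a ratio that the authors made by dividing by Gapdh, which was not used. Reference genes summed to between 860905 and 906199 TPM, and the number of reads is not known. Sequenced bases were worked out as coverage times transcript length for the genes with 1 annotated transcript whose coverage and FPKM gave the library's own total.

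In the 3 deposited files with FPKM, 27 gene names each had become dates in a spreadsheet and were restored from gene identifiers (GENCODE M21, whose coordinates for the 9 genes were those of the tables). TPM was summed per gene name. Calls used the study's threshold, a log2 ratio of TPM + 1 beyond 1 in either direction, and with 1 library per group no test was run. The ratio and threshold were tested on simulated data, with changes put only into genes at a mean of 5 TPM or more. The noise was set by choice, so neither changes in scarce genes nor the real error between pools was covered. The 9 genes, the 9 pathway lists, the 9 marker lists and the threshold were chosen with earlier results of these data known. The text names Clec7a, the 9 genes, Iltifb, from each list described up to 6 members with the largest log2 ratios, and the 5 names nearest in pattern to Il22ra2, Il18 and Il23a (Euclidean distance of centred log2(TPM + 1), names at 10 TPM or more in the highest library, without antigen receptor segments and predicted genes). Genes named beyond this rule were chosen after their values were seen for their role beside the 9: Il18rap, Gsdmd, Lcn2, Saa2, Il17a, Il19, Il20, Ifnl2, Ifnl3, Batf3, Itgax and the genes that overlap Il10rb and Il18bp. Some genes of these lists are not reported here and were left out of the list counts. The settings varied were the pseudocount (0.1 or 5 TPM), a minimum of 5 TPM in the higher library, FPKM, TPM rescaled to names in all 4 tables, median-of-ratios scaling and the highest entry per name. Python 3.11.15, pandas 2.3.3, numpy 2.4.6 and matplotlib 3.10.9 were used.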

Additional observations from a re-analysis of the deposited data

Results flagged for a closer look

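Il22ra2 differed between the genotypes in the direction of its polyp against non-polyp difference: the log2 ratio of TPM + 1 was -2.03 in WT mice and 3.05 in KO mice, both beyond the threshold. With 1 library per group this difference was not tested. No other gene of the 9 passed the threshold in opposite directions in the polyp comparisons of the 2 genotypes.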

How the results depend on the processing

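No paired analysis was possible because each group has 1 library, and for the same reason none could be left out. Il22ra2 kept its direction in all 4 comparisons under every alternative, with log2 ratios from 3.51 to 6.77 between KO and WT polyps. For WT polyps against non-polyp tissue it was -0.85 with a pseudocount of 5 TPM, under the threshold, and it was not tested at a minimum of 5 TPM. Of 196 alternative values of the other 8 genes, 186 stayed on their side of the threshold, 5 fell below it and 5 passed it, and none reversed. KO against WT non-polyp tissue gave 1 of the 9 genes with a pseudocount of 0.1 TPM (Il23r, -1.15) in place of 0. Counts over all gene names depended on the pseudocount: in the order of KO against WT polyps, KO against WT non-polyp tissue, WT polyps against WT non-polyp tissue and KO polyps against KO non-polyp tissue, they were 5106, 762, 4826 and 2338 with 1 TPM, 10860, 4574, 10542 and 7094 with 0.1 TPM, and 2581, 172, 2420 and 965 with 5 TPM. A minimum of 5 TPM, which tests fewer names, gave 338 for the non-polyp comparison and 1472 for KO polyps against KO non-polyp tissue. In the latter, the share of higher calls was 76.9%, 61.7% with 0.1 TPM and 86.9% with 5 TPM. Levels under 1 TPM (Il22, Il23r, and Il22ra2 in WT polyps) rest on few sequenced bases. Il23a in both non-polyp libraries, and Il18r1 in WT polyps and KO non-polyp tissue, also lay under 1 TPM. Mean depth per base was 0.53 for Il23a in the WT non-polyp library and 0.589 for Il18r1 in WT polyps. Folds taken against these levels are uncertain.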

Other observations

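Other genes of the IL-1 family, to which IL-18 belongs, were high in WT polyps. Of 8 listed, 5 were higher in WT polyps than in WT non-polyp tissue and 4 were lower in KO than in WT polyps. Il1rl1, the receptor for IL-33, was at 0.414 TPM in the WT non-polyp library, 126 in WT polyps, 0.347 in the KO non-polyp library and 1.87 in KO polyps. Il1b was at 3.85, 68.1, 3.12 and 9.14 TPM in the same order, and Il1r2, a decoy receptor for IL-1, at 0.0465, 6.47, 0.0227 and 0.686 TPM.

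Genes that make prostaglandin E2 and retinoic acid, lipid mediators of the gut, differed between the polyp libraries in both directions, with 2 of 6 higher and 2 lower in KO than in WT polyps. Adh1, an alcohol dehydrogenase that oxidises retinol, was at 2119 TPM in the WT non-polyp library, 107 in WT polyps, 2277 in the KO non-polyp library and 1645 in KO polyps (log2 ratio 3.93 between polyps). Ptgs2, the inducible cyclooxygenase, was at 26.7 TPM in WT polyps and between 1.67 and 1.75 elsewhere. Of the retinaldehyde dehydrogenases, Aldh1a1 was at 8.36 TPM in WT polyps and between 45.4 and 70.0 elsewhere, Aldh1a3 at 112 TPM in WT polyps and between 2.55 and 4.68 elsewhere, and Aldh1a2 between 1.32 and 3.20 TPM in the 4 libraries.

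The locus assembled at Il22ra1 ran 3243 bases past the annotated 3′ end in WT non-polyp tissue (64.8 TPM) and 3245 bases past it in KO polyps (47.1 TPM), and stopped at the annotated end in WT polyps (12.8 TPM). Il23r was assembled in KO polyps only, in 3 pieces, and Il22 in none of the 3 libraries with assembled loci.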
